A study of Mus musculus with 32 samples.

Results

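Neurons of the cerebral cortex are stacked in layers, and each layer is set up in development and kept in the adult by its own transcription factors. Cux1, Cux2 and Rorb mark the upper layers, whose neurons mostly connect areas of cortex with each other, and Fezf2, Bcl11b, Etv1, Tbr1, Foxp2 and Ctgf mark the deep layers and the subplate, whose neurons mostly send axons out of the cortex. These 9 genes were taken by their symbols, 3 of the upper and 6 of the deep layers, out of 18138 gene symbols on the array. All 9 were present, with 20 probes between them. The question was whether they differed between the frontal cortex (FCtx) of ethanol-treated and control mice, and whether upper- and deep-layer genes moved together from mouse to mouse within a group.

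The samples were total RNA of the FCtx of 32 female C57BL/6J x FVB/NJ F1 mice, and each mouse had its own array (Illumina MouseRef-8 v2.0). The 20 ethanol-treated mice chose between bottles of water and 20% ethanol in daily sessions of the dark phase over 20 days and were killed 20 hours after the last session, and the 12 controls were matched to them. Age at sacrifice and what the controls drank are not given in the sources used here. The labels name 1 direction of the cross and the Methods name both. The dissected piece was the dorsal part of a rostral slice cut so as to leave out the olfactory bulbs. Chips 1 and 2 held 8 ethanol-treated mice each, chip 4 held 8 controls, and chip 3 held 4 of each group, the ethanol-treated mice at odd positions (A, C, E and G) and the controls at even positions (B, D, F and H). Treatment can therefore be compared within a chip only on chip 3, and there treatment and odd or even position cannot be told apart.

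Signals are given on a log2 scale after variance stabilization and quantile normalization, and a probe was tested when its detection p-value was below 0.01 on at least 24 of the 32 arrays. Of all 25697 probes, 10187 were tested. At a false discovery rate (FDR) below 1%, 371 were higher and 467 lower in ethanol-treated mice by limma, against 122 and 12 when arrays were scaled to a common median instead. That scaling moved the median difference of all probes from -0.0034 to 0.05. Median signals before normalization were low on the whole of chip 4, which held controls only, from 146 to 168. They ran from 177 to 187 in the controls of chip 3 and from 166 to 188 in its ethanol-treated mice. On chips 1 and 2 they ran from 172 to 203. The control array C66 on chip 4 had the lowest, 146, and the fewest detected probes, 9480. Of 6 pyramidal neuron markers 4 were tested (Slc17a7, Nrgn, Camk2a and Neurod2), while Rtn4r was detected on 23 arrays and Neurod6 on 0.

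Of the 20 layer-gene probes, 9 were tested, and they read 8 of the 9 genes. Every tested value was the mean of between 22 and 61 beads, with a median bead standard error of 4.73% of the signal. Foxp2, a forkhead factor of layer 6 neurons, had 4 probes, detected on 0, 0, 1 and 1 arrays, so it was not well above background in either group and no difference is given. Cux1, a homeobox factor, had 5 probes. The one that the file assigns to the transcript NM_198602.2 was detected on all 32 arrays, while the 4 assigned to NM_009986.3 were detected on 0, 0, 2 and 6. All Cux1 differences and correlations below are therefore of NM_198602.2 alone. The file places the tested probe at chr5:136724400-136724449 and the other 4 between 136750421 and 136802764, all on the minus strand. Whether this transcript holds the homeobox was not examined. Cux1 is counted with the upper-layer genes below by its symbol alone, and no difference is given for NM_009986.3. Cux2, its close relative, was detected on all 32 arrays by 1 of its 3 probes and on 0 by the other two. Rorb, a nuclear receptor of layer 4 neurons, had a tested probe detected on 31 arrays and a second detected on 21, which was not tested.

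The probe sequences show what each value reads. The 2 tested probes of Etv1 are shifted copies of each other: they share 29 bases, shown in capitals in the last 30 bases of the first and the first 30 bases of the second, so they do not count as independent readings. The first 30 bases of the other probes with a difference at an FDR below 10%, and of the tested and the next most often detected Cux1 probe, which read different transcripts, are given in lower case as the file lists them.
Etv1, first probe, last bases: tTTGCAGCCGTTCGCCTAGCGTGGCCTTCA
Etv1, second probe, first bases: TTGCAGCCGTTCGCCTAGCGTGGCCTTCAg
Tbr1: cgatgcctgccaggcggacttaactggagt
Fezf2: gcgctgaaacatatttaattccaggcctcc
Bcl11b: gcggcagtccagcctaacctgtgtctgcga
Cux1, tested: gtcactacccagtctggcatttctatagcc
Cux1, detected on 6 arrays: ccatcgaggaacttgccacacaactcaacc
The file places the Tbr1 probe at chr2:61651395-61651444 on the plus strand, the Fezf2 probe at chr14:11135489-11135538 on the minus strand, the Bcl11b probe at chr12:109153447-109153496 on the minus strand and the first Etv1 probe at chr12:39506958-39507007 on the plus strand, in a genome build that it does not name.

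Deep-layer genes differed between the groups in both directions. Tbr1 and Fezf2 were lower in ethanol-treated mice and Etv1 was higher at an FDR below 1%, and Bcl11b was higher at an FDR below 10%. None of the upper-layer genes passed either threshold. By limma over all 10187 probes, 3 of the 9 tested layer-gene probes passed an FDR of 1%, where 8.23% of all tested probes did, and 5 of 9 passed an FDR of 10%, where 25.6% did. With 9 probes, a pair of which share bases, these counts were not read as particular to layer genes. The median log2 difference, ethanol minus control, was -0.05 over the 3 upper-layer genes and -0.17 over the 5 deep-layer genes by their brightest tested probe, against -0.0034 over all tested probes. A lower or higher level in a piece of tissue can come from fewer or more cells of a type or from less or more RNA per cell, and the arrays cannot tell these apart.

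**Figure D1:**
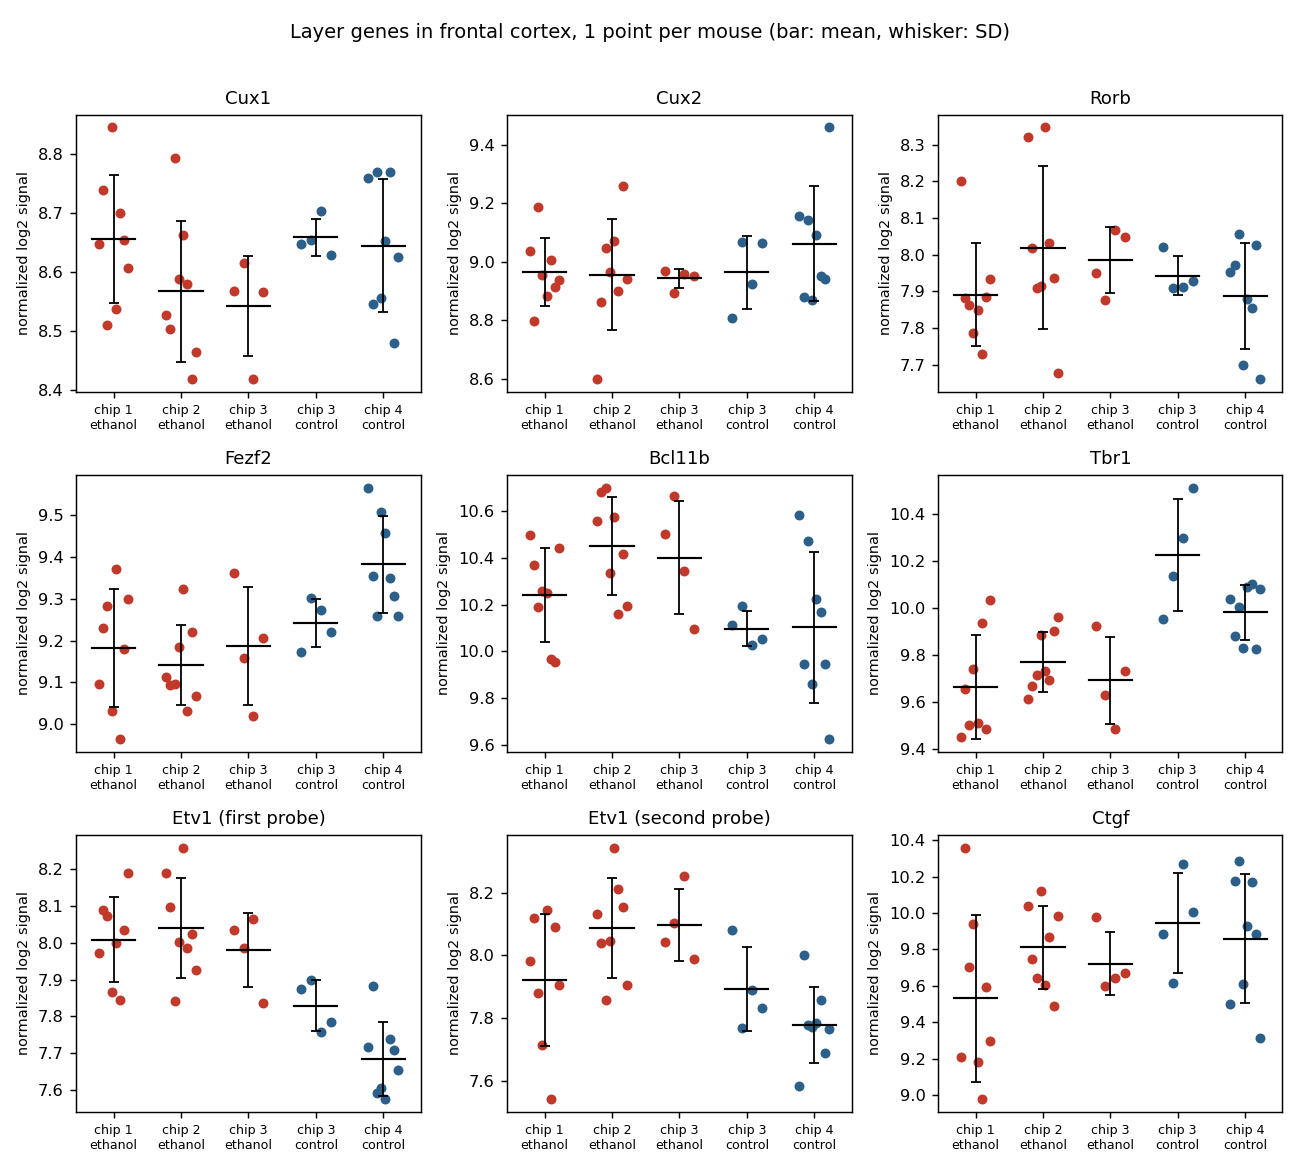
Normalized log2 signal of the 9 tested layer-gene probes, 1 point per mouse, by chip and group (red ethanol, blue control; horizontal bar mean, whisker SD; each panel has its own axis). All 20 ethanol-treated mice lay below the control median for Tbr1 and above it for the first Etv1 probe.

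Tbr1, the T-box factor of corticothalamic neurons in layer 6, was lower in ethanol-treated mice. Its normalized log2 signal ran from 9.45 to 10.03 with a median of 9.70 in the 20 ethanol-treated mice, and from 9.83 to 10.51 with a median of 10.06 in the 12 controls. All 20 ethanol-treated mice lay below the control median, 14 of them below every control, and 7 controls lay above every ethanol-treated mouse. Its mean was 9.71 ± 0.18 (SD, n = 20) with ethanol against 10.06 ± 0.20 (SD, n = 12) without, a difference of -0.35 (standard error 0.06, adjusted p = 2.7e-04 by limma), which is a signal lower by a factor of 1.27.

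Tbr1 was lower on chip 3 as well. There its values were 9.49, 9.63, 9.73 and 9.92 in the ethanol-treated mice and 9.95, 10.13, 10.30 and 10.51 in the controls, with no overlap, as for 15.2% of all tested probes on that chip. The difference of -0.53 (standard error 0.10) had an adjusted p of 0.0039 by limma. Between chips 1 and 2 and chip 4 it was -0.26 (adjusted p = 0.0046), and the 2 differences were not shown to differ (adjusted p = 0.21 by limma's interaction term). Even positions were higher than odd by 0.13 on chips 1, 2 and 4 (adjusted p = 0.11), the direction of the controls on chip 3. With chip as a fixed block, which compares treatment within chip 3 only, the difference was -0.53 (standard error 0.11, adjusted p = 0.014 by limma). With chip as a random block it was -0.39 (adjusted p = 0.0045). With chip and odd or even position both in the fit it was -0.40 (standard error 0.12, adjusted p = 0.24). With median scaling it was -0.27 over all arrays (adjusted p = 0.059) and -0.56 on chip 3 (adjusted p = 0.0023).

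Fezf2, the zinc finger factor that directs layer 5 neurons to project below the cortex, ran from 8.96 to 9.37 with a median of 9.17 in ethanol-treated mice and from 9.17 to 9.57 with a median of 9.30 in controls. Of the 20 ethanol-treated mice 17 lay below the control median and 10 below every control. The difference in means was -0.17 (standard error 0.04, adjusted p = 0.0066 by limma). Chips 1 and 2 against chip 4 gave -0.22 (adjusted p = 0.0025). On chip 3 the values 9.02, 9.16, 9.21 and 9.36 in ethanol-treated mice overlapped 9.17, 9.22, 9.27 and 9.30 in controls, a difference of -0.06 (adjusted p = 0.68). The chip 3 difference was not shown to differ from that of the other chips (interaction 0.17, adjusted p = 0.29 by limma). With median scaling the difference over all arrays was -0.10 (adjusted p = 0.34), and with chip and odd or even position in the fit -0.13 (adjusted p = 0.71).

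Etv1, an ETS-domain factor of layer 5 neurons, was higher in ethanol-treated mice by both of its probes. The first ran from 7.84 to 8.26 with a median of 8.01 in ethanol-treated mice and from 7.58 to 7.90 with a median of 7.73 in controls. All 20 ethanol-treated mice lay above the control median and 16 above every control, and 9 controls lay below every ethanol-treated mouse. Its difference was 0.28 (standard error 0.04, adjusted p = 4.4e-05 by limma), the 19th smallest p of all tested probes. The second probe ran from 7.54 to 8.34 with a median of 8.04 in ethanol-treated mice and from 7.58 to 8.08 with a median of 7.78 in controls, a difference of 0.21 (standard error 0.06, adjusted p = 0.012), with 18 of 20 ethanol-treated mice above the control median. At odd positions the second probe differed by 0.37 (adjusted p = 0.0020), at even positions by 0.06 (adjusted p = 0.70) and on chip 3 by 0.20 (adjusted p = 0.10). With chip and odd or even position in the fit the probes differed by 0.14 (adjusted p = 0.67) and 0.16 (adjusted p = 0.73).

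The Etv1 signals were close to the detection limit. The first probe was detected in 20 of 20 ethanol-treated mice and 8 of 12 controls, and the second in 19 and 10. Fold changes near the background depend on how background is treated: with normexp background correction the log2 differences were 0.78 (adjusted p = 4.05e-05 by limma) and 0.51 (adjusted p = 0.0215). On chip 3 the first probe read 7.84, 7.99, 8.04 and 8.06 in ethanol-treated mice and 7.76, 7.79, 7.88 and 7.90 in controls, a difference of 0.15 (adjusted p = 0.17) with overlap of the groups. Odd and even positions differed by -0.01 on chips 1, 2 and 4 (even minus odd, adjusted p = 0.93). Across mice the 2 probes correlated with r = 0.61 in the ethanol-treated group (Spearman's rho 0.48, permutation p = 0.0040 and 0.033, r = 0.50 without the 2 mice farthest from the median) and r = 0.53 in controls (rho 0.41, permutation p = 0.076 and 0.18, r = 0.70 without the 2 farthest). With values centred within group, chip and odd or even position r was 0.60 over the 32 arrays.

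Bcl11b, a zinc finger factor of layer 5 projection neurons that is also made by striatal neurons and some interneurons, ran from 9.95 to 10.70 with a median of 10.36 in ethanol-treated mice and from 9.62 to 10.59 with a median of 10.08 in controls. The ranges overlapped widely, although 18 of the 20 ethanol-treated mice lay above the control median. The difference was 0.26 (standard error 0.08, adjusted p = 0.020 by limma). It did not pass with chip as a fixed block (0.30, adjusted p = 0.25) or with chip and odd or even position in the fit (0.11, adjusted p = 0.88). On chip 3 the values were 10.10, 10.35, 10.50 and 10.67 in ethanol-treated mice and 10.03, 10.05, 10.11 and 10.20 in controls, a difference of 0.30 (adjusted p = 0.045) that did not pass without ethanol-treated mouse A46 (0.27, adjusted p = 0.11), ethanol-treated mouse A47 (0.22, adjusted p = 0.15) or control C55 (0.28, adjusted p = 0.12). At even positions, between chips 1 and 2 and the controls of chips 3 and 4, it was 0.30 (adjusted p = 0.061), and at odd positions 0.09 (adjusted p = 0.68). Even positions were lower than odd by 0.20 on chips 1, 2 and 4 (adjusted p = 0.11), again the direction of the controls on chip 3.

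Ctgf, a secreted matricellular protein found in subplate neurons, varied most among the mice. It ran from 8.98 to 10.36 with a median of 9.66 in ethanol-treated mice and from 9.31 to 10.29 with a median of 9.91 in controls, with SDs of 0.34 and 0.32. The difference of -0.21 (standard error 0.11) did not pass (adjusted p = 0.19 by limma).

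The upper-layer genes gave small differences within the spread between mice. The mean of Cux1 was 8.60 ± 0.11 (SD, n = 20) with ethanol against 8.65 ± 0.09 (SD, n = 12) without, a difference of -0.05 (adjusted p = 0.40 by limma). Cux2 averaged 8.96 ± 0.14 and 9.03 ± 0.18, a difference of -0.07 (adjusted p = 0.37), and its highest value, 9.46, came from the array C66. Rorb averaged 7.96 ± 0.17 and 7.91 ± 0.12, a difference of 0.06 (adjusted p = 0.52). The signs of Cux1 and Cux2 were not stable: both were positive at 0.01 with median scaling. On chip 3 all 4 ethanol-treated mice lay below all 4 controls for Cux1, from 8.42 to 8.62 against 8.63 to 8.70, as for 15.2% of all tested probes in either direction, with an adjusted p of 0.26 by limma.

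Because chips and treatment were tied together, the layer genes were also compared in subsets of arrays. On chip 3, 2 of 9 probes passed an FDR of 10% (Tbr1 and Bcl11b), where 16.8% of all tested probes passed. With chips 1 and 2 against chip 4, 5 of 9 passed, where 32% of all did. At odd positions alone 4 of 9 passed (both Etv1 probes, Tbr1 and Fezf2; 17.8% of all), and at even positions alone 4 of 9 passed (Tbr1, Fezf2, Bcl11b and the first Etv1 probe; 5.23% of all). Between even and odd positions on chips 1, 2 and 4, with chip in the fit, 1 of 9 passed, where 20.3% of all did: Rorb, lower at even positions by 0.17 (adjusted p = 0.044). These sets share arrays with each other and with the comparison over all arrays.

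**Figure D2:**
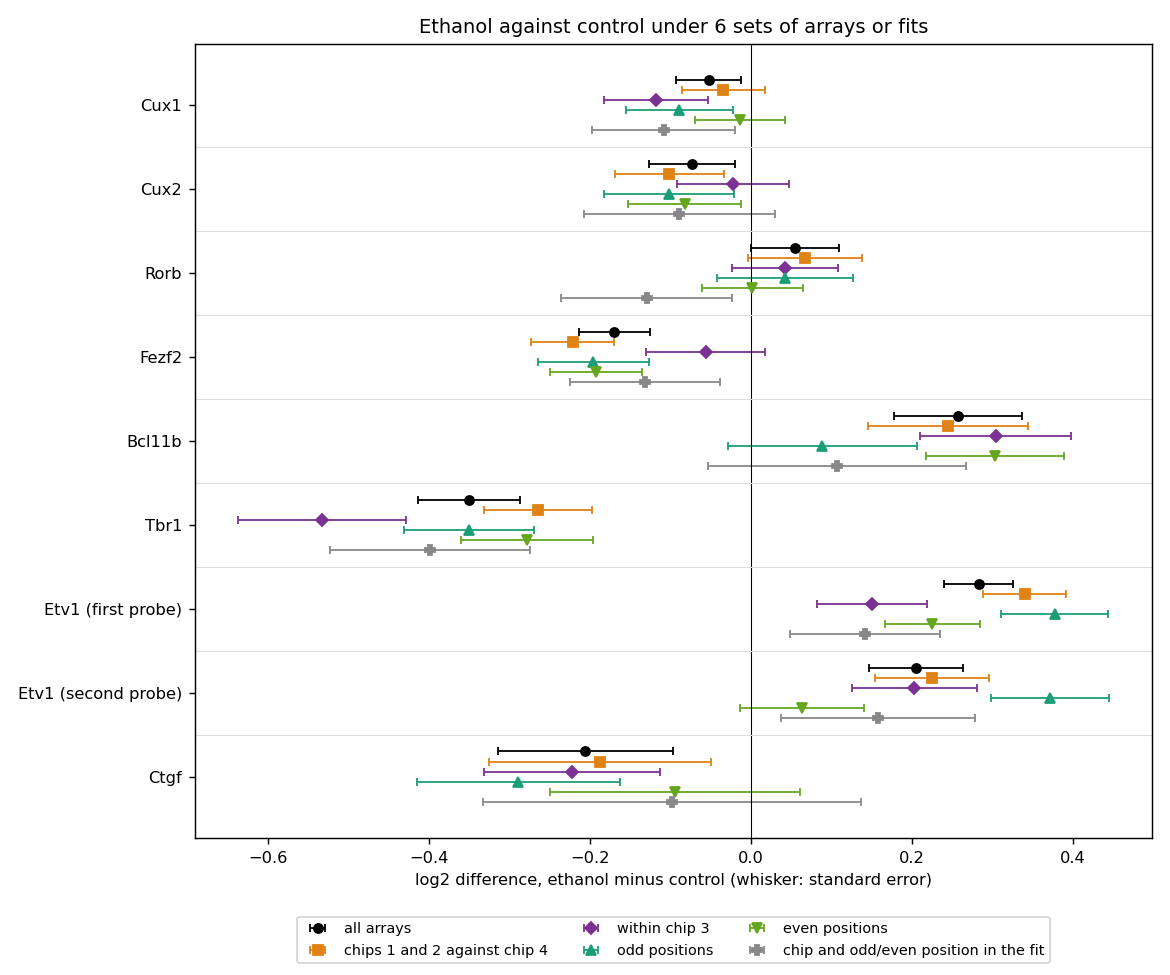
Log2 difference, ethanol minus control, for the 9 tested layer-gene probes (x axis; whiskers are standard errors from limma) with all arrays, with 4 subsets of arrays, and with chip and odd or even position in the fit. Tbr1, Fezf2, Ctgf, Cux1 and Cux2 lay to the left of 0, and Etv1 and Bcl11b to the right, in all 6. Rorb crossed from 0.06 to -0.13 in the last.

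Other genes of the same layers are shown beside them. Of 17 further upper-layer genes 16 were on the array and 6 were tested. Pvrl3 (nectin-3, an adhesion molecule) was higher by 0.30 (adjusted p = 0.0081 by limma), Lhx2, a LIM homeobox factor, was lower by 0.11 (adjusted p = 0.050), and the 6 had a median of -0.04. Pvrl3 and Lhx2 passed an FDR of 10%, where 25.6% of all tested probes did. Pvrl3 was lower at even than at odd positions by 0.36 (adjusted p = 7.8e-04). Of 11 further layer 5 genes 4 were tested. Deptor, an inhibitor of mTOR signalling, was higher by 0.16 (adjusted p = 0.0060) and Bcl6, a transcriptional repressor, was lower by 0.20 (adjusted p = 0.036), the latter with the opposite sign, 0.20, on chip 3 (adjusted p = 0.071). Deptor and Bcl6 passed an FDR of 10% over all arrays, where 25.6% of all tested probes did, and the median of the 4 was 0.02. On chip 3, 2 of the 4 were higher at that FDR, Bcl6 and Ldb2 (0.35, adjusted p = 0.018), where 16.8% of all tested probes passed. The median there was 0.15. The summed signal of the 4 ran on chip 3 from 2494 to 3017 in ethanol-treated mice and from 2275 to 2480 in controls. These ranges did not overlap, as for 15.2% of single tested probes on that chip in either direction.

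Of 15 further layer 6 and subplate genes 8 were tested, and 0 passed an FDR of 10% by limma, where 25.6% of all tested probes did, with 1 at an unadjusted p below 0.05. Tle4, a co-repressor of corticothalamic neurons, differed by -0.03 (adjusted p = 0.76), and Ntsr1, a neurotensin receptor of the same neurons, by 0.02 (adjusted p = 0.78). The median of the 8 was -0.02, beside -0.35 for Tbr1. On chip 3, Rprm was lower by 0.43 (adjusted p = 0.0099) and Crym, a thyroid hormone binding protein, by 0.31 (adjusted p = 0.0053), and the median was -0.14.

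Markers of other cells moved with the groups on some of the same arrays. Among pyramidal neuron genes Slc17a7, the vesicular glutamate transporter, was lower by 0.27 (adjusted p = 0.0041 by limma) and Nrgn, a postsynaptic calmodulin-binding protein, by 0.18 (adjusted p = 0.0055). These were 2 of 4 tested, where 25.6% of all probes passed an FDR of 10%. The others were Camk2a at -0.10 (adjusted p = 0.33) and Neurod2 at 0.09 (adjusted p = 0.37). The summed normalized signal of the 4 ran from 19016 to 24873 in ethanol-treated mice and from 21325 to 28681 in controls. Among 6 tested interneuron genes 2 were higher at an FDR below 10%, Gad1 by 0.31 (adjusted p = 0.013) and Slc32a1 by 0.13 (adjusted p = 0.077). The other 4 did not pass, with differences between -0.13 (Vip) and -0.01 (Sst), and the median of the 6 was -0.04. Their sums ran from 22529 to 26226 and from 20700 to 25431. Gad2 and Lhx6 were detected on 0 arrays. Over all arrays 0 of 6 olfactory bulb, 0 of 5 leptomeningeal, 0 of 4 striatal and 1 of 10 oligodendrocyte genes passed an FDR of 10% by limma, against 25.6% of all tested probes. In the same order 0, 0, 0 and 2 passed an unadjusted p of 0.05. Of 7 endothelial genes 2 were higher and 1 lower at that FDR.

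On chip 3, where 16.8% of all tested probes passed an FDR of 10%, more genes of some of these lists passed. Olfactory bulb genes were higher in ethanol-treated mice for 5 of 6 tested, with a median difference of 0.71 and sums from 4993 to 6117 against 1715 to 3556 in controls. Of the untested genes of that list, Eomes was detected on 8 arrays, Tbx21 on 1, and Omp and Synpr on 0. Leptomeningeal genes were higher for 4 of 5, with sums from 6076 to 8471 against 4376 to 4834. Oligodendrocyte genes were lower for 7 of 10, with sums from 23213 to 27883 against 25853 to 42085. Endothelial genes were higher for 3 of 7, and 1 of 4 striatal genes was lower. Pyramidal neuron genes were lower for 2 of 4, with sums from 21130 to 22385 against 23247 to 27455 in controls. Interneuron genes were higher for 2 of 6, with sums from 24246 to 25019 against 20700 to 22431. Even positions of chips 1, 2 and 4, where treatment does not vary within a chip, were lower than odd ones for 3 of 6 olfactory bulb genes (median difference -0.45) and 3 of 5 leptomeningeal genes (-0.25), where 20.3% of all tested probes differed in either direction. The part of these cells in the differences of the layer genes was not tested. Within sets of equal group, chip and odd or even position, Tbr1 correlated with the olfactory bulb genes at r = -0.15 and with the oligodendrocyte genes at r = -0.24, as Pearson's r over 32 arrays (permutation p = 0.42 and 0.33). With the pyramidal neuron genes its r was 0.46 (rho 0.50, permutation p = 0.0081 and 0.0068, adjusted p = 0.089 and 0.17 over 80 relations, r = 0.39 without the 2 farthest arrays). Fezf2 had r = -0.51 with the olfactory bulb genes (rho -0.51, permutation p = 0.0084 and 0.0095, adjusted p = 0.089 and 0.17, r = -0.51 without the 2 farthest). Etv1, like Tbr1 also made in the olfactory bulb, had r = -0.43 with that list (permutation p = 0.060, adjusted p = 0.22). With the oligodendrocyte genes its r was 0.55 (rho 0.50, permutation p = 0.016 and 0.012, adjusted p = 0.12 and 0.17, r = 0.34 without the 2 farthest). For Bcl11b r was 0.09 and 0.30 with the same 2 lists (permutation p = 0.66 and 0.11).

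**Figure D3:**
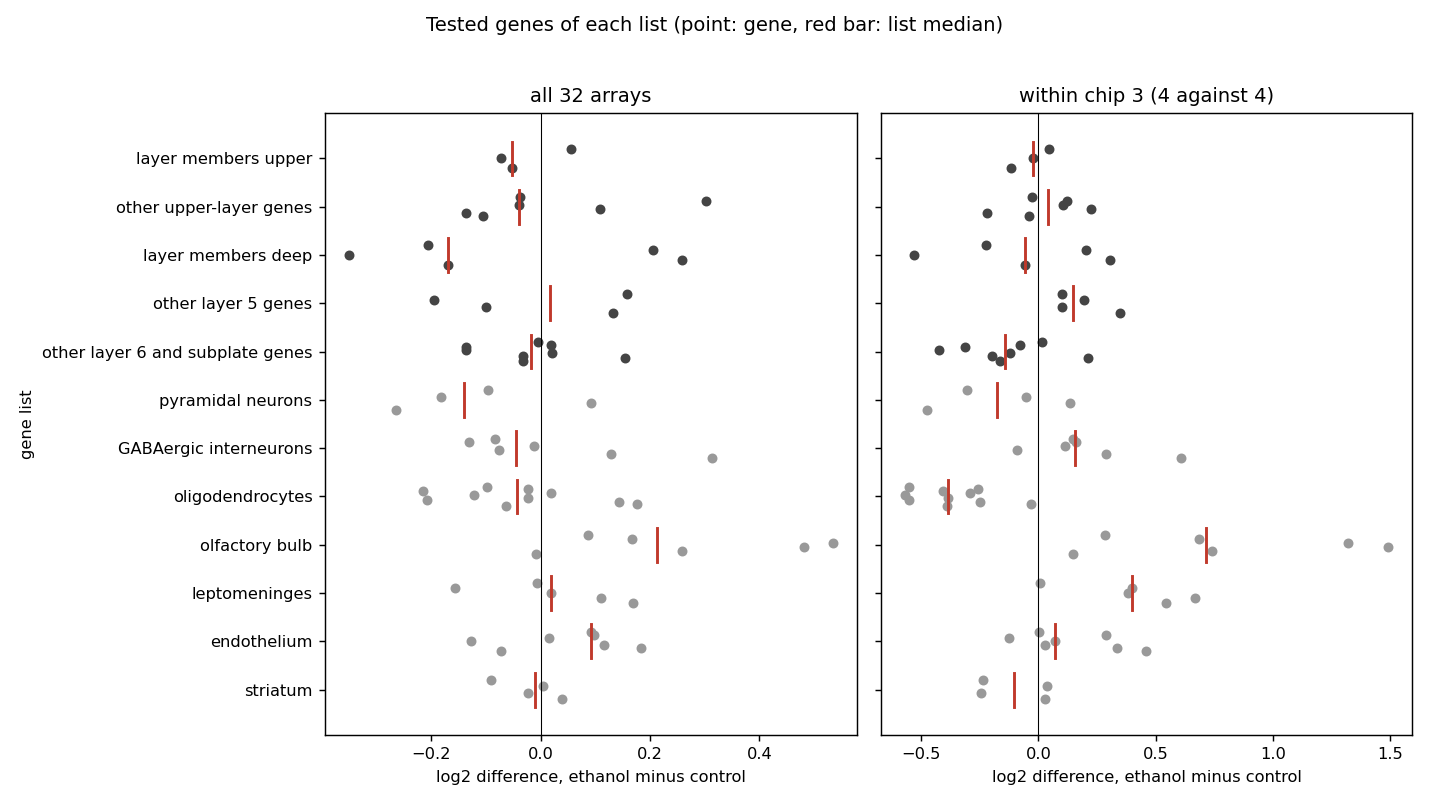
Log2 difference, ethanol minus control, of every tested gene of each list (points; layer genes black, other cells grey; "layer members" are the 9 genes of the report), with the list's median as a red bar, over all 32 arrays on the left and within chip 3 on the right, where the x axis is wider. The olfactory bulb median was 0.71 on chip 3, and the 8 further layer 6 and subplate genes lay around a median of -0.02 over all arrays.

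The relation of the layer genes to each other was examined across mice, separately in each group. The 8 tested genes, by their brightest tested probe, give 28 pairs: 3 of upper with upper, 15 of upper with deep and 10 of deep with deep. After Benjamini-Hochberg adjustment over the 28 pairs, 0 passed 0.05 in controls and 0 in ethanol-treated mice by permutation tests with 100000 resamples, and 2 in each group had an unadjusted p below 0.05. Spearman's rho gave 0 in both groups as well. The median r was 0.07 in controls and 0.02 in ethanol-treated mice, and 17 of 28 were positive in each.

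The upper-layer genes did not form a group apart. In controls r was 0.27 for Cux1 and Cux2, 0.11 for Cux1 and Rorb and -0.40 for Cux2 and Rorb. In ethanol-treated mice all 3 were below 0, between -0.19 and -0.09. The negative value of Cux2 and Rorb in controls rested on few mice: it was 0.42 without the 2 farthest from the median, and without C66 the 3 pairs ran from 0.08 to 0.52. Pairs of deep-layer genes ran from -0.57 to 0.49 in controls and from -0.35 to 0.37 in ethanol-treated mice. Pairs of an upper- with a deep-layer gene ran from -0.54 to 0.68 and from -0.44 to 0.61, with medians of 0.05 and 0.01.

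The pairs with the lowest p joined an upper- and a deep-layer gene. Rorb and Etv1 correlated with r = 0.61 and rho = 0.52 in ethanol-treated mice (permutation p = 0.0051 and 0.019, adjusted p = 0.14 and 0.52). The r was 0.52 without the 2 mice farthest from the median and 0.50 after centring within chip and odd or even position (permutation p = 0.039, adjusted p = 0.55). Controls had r = 0.18 before and 0.65 after centring (permutation p = 0.024 after centring, adjusted p = 0.36). Cux1 and Bcl11b correlated in controls with r = 0.68 and rho = 0.77 (permutation p = 0.014 and 0.0049, adjusted p = 0.37 and 0.14), with r = 0.77 without the 2 farthest and 0.77 after centring (permutation p = 0.038, adjusted p = 0.36). In ethanol-treated mice r was 0.01 for this pair. The difference between the groups had an unadjusted permutation p of 0.043 and an adjusted p of 0.85, and 0 of 28 pairs differed after adjustment, with 1 at an unadjusted p below 0.05. With median scaling, 7 of 28 pairs passed in controls, all positive, and 1 did when C66 was left out.

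**Figure D4:**
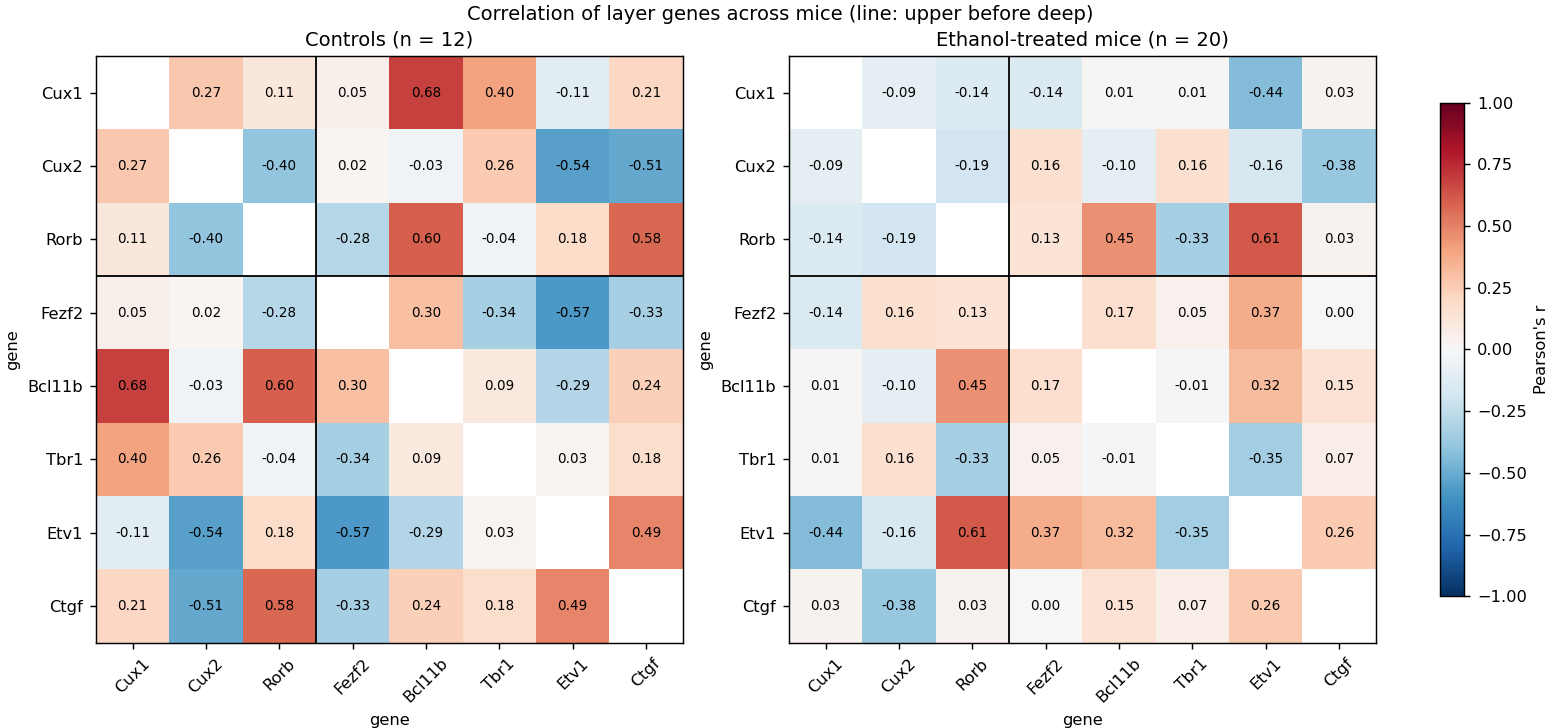
Pearson's r between the 8 tested layer genes across 12 controls (left) and 20 ethanol-treated mice (right), with colour from -1 to 1 and black lines between upper- and deep-layer genes. The highest values are 0.68 for Cux1 and Bcl11b in controls and 0.61 for Rorb and Etv1 in ethanol-treated mice.

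Each of the 8 genes was also set against the level of the 10 other gene lists, 80 relations in all, with values centred within group, chip and odd or even position and permuted within these sets. A list's level on an array was the mean of its tested genes, each centred and scaled over the arrays. Of the 80, 2 had an adjusted p below 0.05 by Pearson's r. Bcl11b followed the 4 further layer 5 genes (Ldb2, S100a10, Bcl6 and Deptor) with r = 0.67 and rho = 0.70 over 32 arrays (permutation p = 6.6e-04 and 2.2e-04, adjusted p = 0.029 and 0.018), and r = 0.72 without the 2 farthest arrays. Without centring, r was 0.56 in the 12 controls and 0.68 in the 20 ethanol-treated mice. Ctgf followed the 10 oligodendrocyte genes with r = 0.70 and rho = 0.60 (permutation p = 7.2e-04 and 0.0025, adjusted p = 0.029 and 0.10), and r = 0.55 without the 2 farthest. Without centring, r was 0.72 in controls and 0.60 in ethanol-treated mice. With the striatal genes Ctgf had r = 0.60 (rho 0.43, permutation p = 0.0083 and 0.028, adjusted p = 0.089 and 0.20), and r = 0.35 without the 2 farthest. Before centring, ethanol-treated mouse A13 had the highest oligodendrocyte level, 2.84 with the next at 1.95, and the highest striatal level, 3.38 with the next at 1.11. Leaving out A13 alone was not tested. The relations of Bcl11b with layer 5 genes and of Ctgf with oligodendrocyte genes missed the threshold without C66 (r = 0.64 and 0.67, adjusted p = 0.060 for each). Relations between upper- and deep-layer genes that did not pass went both ways. Etv1 had r = -0.56 with the further upper-layer genes (permutation p = 0.0058, adjusted p = 0.089). With the further layer 6 and subplate genes Rorb had r = 0.51 and Cux2 -0.56 (permutation p = 0.0089 and 0.016, adjusted p = 0.089 and 0.12).

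**Figure D5:**
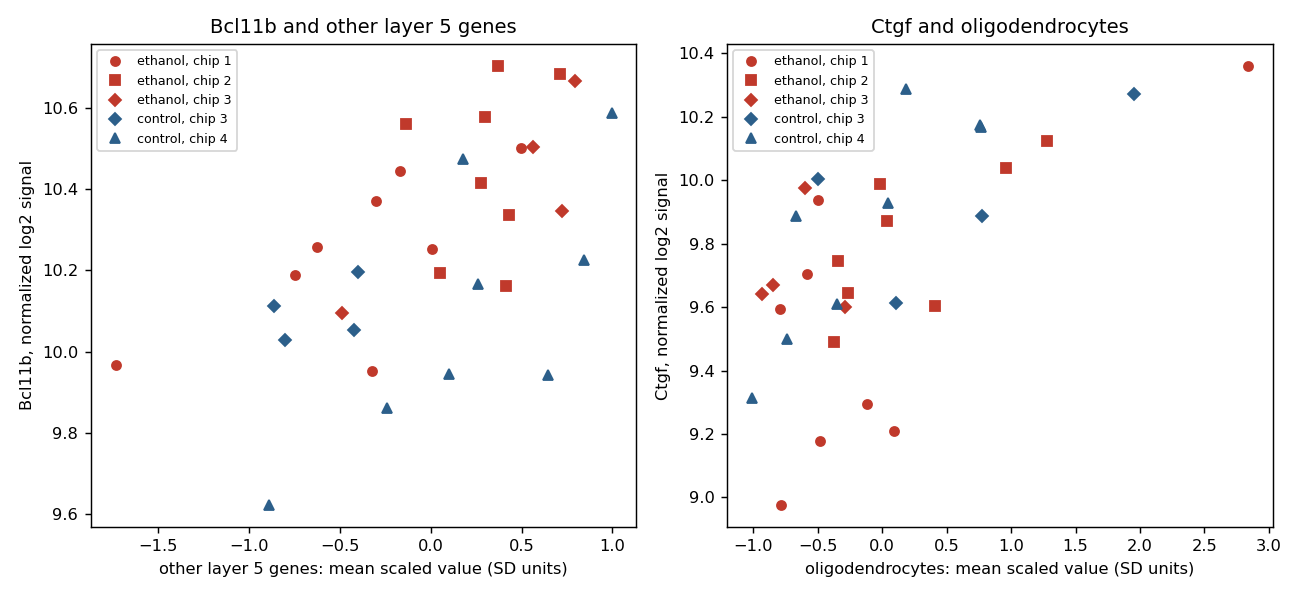
Normalized log2 signal of Bcl11b against the level of 4 further layer 5 genes (left) and of Ctgf against the level of 10 oligodendrocyte genes (right), 1 point per mouse, before centring; colour gives the group and shape the chip. Over 32 arrays, after centring, r was 0.67 and 0.70.

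The 3 genes whose pattern was most like each layer gene were sought among 7918 other tested genes, by Pearson's r over the 32 arrays after the same centring, as a description. For Ctgf these were Slc44a1 (0.74), Bcas1 (0.74) and Mobp (0.73), the last of these a myelin protein of the oligodendrocyte list. Bcl11b was most like Dgkg (0.81), C79267 (0.81) and Nav1 (0.79). Tbr1 was most like Gas2l1 (0.71), Men1 (0.70) and Ints7 (0.69). All 3 were lower in ethanol-treated mice, by 0.39, 0.18 and 0.22 (adjusted p = 1.3e-06, 0.014 and 4.9e-04 by limma). Fezf2 was most like Rbak (0.75), D10Ertd610e (0.71) and Atpif1 (0.70), and Etv1 most like Mapk8ip1 (0.73), Ckmt1 (0.73) and Eif4e2 (0.72). Among the upper-layer genes, Cux2 was most like LOC100047659 (0.79), Pctk1 (0.73) and Dlg3 (0.73). Rorb was most like BC011248, 1200016B10Rik and Prf1 (0.68 each), and Cux1 most like C430004E15Rik (0.66), Setd5 (0.65) and Agrn (0.65).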

How the data were processed

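One unnormalized bead summary of 32 arrays was used. The authors deposited intensities, the mean bead signal of each probe, on a linear scale. The authors also deposited detection p-values and, as other values, the bead standard error and the number of beads. Lumi and limma are named in the submitters' processing notes, without versions.

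Groups come from the labels. The variance-stabilizing transform named in the Methods was rebuilt from the bead errors, because lumi was not used here. On these arrays its background term was not positive, so the values are close to log2 of the signal. Quantile normalization followed, in R 4.3.3 with data.table (1.17.8) and limma (3.58.1). Probes detected (p below 0.01) on 24 of 32 arrays were tested by limma without covariate, with Benjamini-Hochberg adjustment over all of them. Each array is a different mouse, so p-values measure the spread between mice, and the number of beads limits the precision of each. In the fit without covariate they do not take account of differences between chips, which are tied to treatment. Correlations used Python 3.11.15 with numpy 2.4.6, scipy 1.17.1 and pandas 2.3.3, and figures matplotlib 3.10.9. The fits and permutation tests were tested on simulated data.

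A gene with several tested probes is given by the brightest in counts over genes and in correlations, and every tested probe of a layer gene is reported. Of the list genes, those with a value or count in the text are named, and the 3 nearest genes by correlation. The layer genes and the lists were chosen with earlier results of these data known. Alternatives were median scaling, plain log2 signals, normexp background correction (offset 16), testing every probe or those detected on 32 arrays, blocks for chip or for odd and even position, array weights, and leaving out C66, chip 3 or each of its arrays. For correlations they also included centred values and Spearman's rho. Odd or even positions alone, median scaling without C66, and the alternatives for the 2 relations with gene lists were chosen after seeing the data.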

Additional observations from a re-analysis of the deposited data

Results flagged for a closer look

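In 45 sets of 4 or 8 mice of 1 chip and group, 1 layer-gene value stood far from the others of its set, where chance flags about 1 in 20 sets. It was Rorb in ethanol-treated mouse A3 on chip 1, at 8.20 with the next highest mouse at 7.93, a gap of 0.563 of the range of the 8 mice.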

How the results depend on the processing

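Of 9 layer-gene probes, 3 had an FDR below 1% and 5 below 10%. With median scaling 1 passed the first. With chip as a fixed block 0 and 1 did, and with odd or even position added 0 and 0, with 2 and 1 at an unadjusted p below 0.05 by limma; in these fits treatment is compared within chip 3 only, and of all 10187 probes 22 and 654 passed with chip and 2 and 6 with position added. With probes detected on all arrays 3 passed the second, since 6 of the 9 were tested. At even positions alone 0 passed the first, with 4 at an unadjusted p below 0.05. On chip 3, 2 passed an FDR of 10%, and 1 with normexp background correction or median scaling (Tbr1). Leaving out each of its arrays gave between 1 and 4, with 1 without A47 or C55 (Tbr1) and 4 without A50, where both Etv1 probes joined. Between even and odd positions 1 passed, and 0 with median scaling, with 2 at an unadjusted p below 0.05. Over 123 refits of single differences, 104 kept direction and side of an FDR of 1%, 14 lost and 2 gained it, and 3 changed sign: Cux1 and Cux2 with median scaling (0.0093 and 0.0081) and Rorb with chip and odd or even position (-0.13). Among controls 7 of 28 correlations passed with median scaling and 1 when C66 was also left out, against 0 otherwise. Where no cause is given, the cause was not tested. No paired analysis was possible because the 2 groups share no mouse numbers. The deposited signals of Etv1, Rorb and Foxp2 lay near background, which limits what can be said of them.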
